A study of Mus musculus with 6 samples.

Results

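Chemokines and their receptors were examined in newborn mouse skin: 49 genes of the 18193 measured, chosen by gene symbol alone. They comprised 33 ligands (symbols starting with Ccl or Cxcl and a number, plus Xcl1 and Cx3cl1) and 16 receptors (Ccr or Cxcr and a number, plus Xcr1 and Cx3cr1). For each gene, the probe set (a group of short probes for 1 transcript) with the highest mean over all arrays was used. Whole back skin came from 6 female mice of 1 litter at postnatal day 2.5, on a mixed FVB/N and C57BL/6 background, with 1 array per mouse. In 3 mice, labelled K5cre-caNrf2 (tg/tg), K5cre was combined with caNrf2, an always active version of Nrf2. K5cre expresses Cre recombinase from the promoter of keratin 5, a gene of basal keratinocytes, so Cre acts in those cells and their descendants, while whole skin holds many other cells. The 3 controls, labelled K5cre-wt (tg/wt), are read here as carrying the Cre transgene without caNrf2. The sample descriptions also contain the word "weak", which the labels do not explain. The design asks which transcripts differ in skin whose keratinocytes hold permanently active Nrf2, the factor that switches on antioxidant and detoxification genes.

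Chemokines are small secreted proteins that guide migrating cells. They bind receptors of the G protein-coupled family, and they are grouped as C, CC, CXC and CX3C by the spacing of their first cysteines. In skin some, such as Cxcl12 and Cxcl14, are made steadily by fibroblasts or epithelium. Others, such as Cxcl1 and Ccl2, are induced by NF-kB signalling during injury or infection and call in neutrophils and monocytes. Receptors are carried mostly by leukocytes, with Cxcr4 also found on endothelium and other cells.

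All values are log2 of the deposited intensities. The median probe set measured 6.34, and 3 Y-linked genes, which are silent in females, lay between 2.94 and 3.95. The medians of single arrays ran from 6.33 to 6.36, and any pair of arrays correlated at 0.9961 to 0.9980 across probe sets, a measure too coarse to show that no array stood apart. Without caNrf2 array 1, 89 genes were called in place of 68, and without any other array 41 to 60. Without caNrf2 array 1, 32.1% of all genes had groups without overlap, against 20.2% to 27.7% without another array. Mast cell markers averaged 8.26 on that array and 8.46 to 8.70 on the others. Nqo1, a standard Nrf2 target, rose from 5.92 ± 0.27 to 9.53 ± 0.15 (mean ± SD, n = 3), a difference 12.2-fold in size. Nfe2l2, the gene of Nrf2 itself, differed by 0.41 ± 0.07 (log2 ± SE; limma, adjusted p = 0.0539). Markers of keratinocytes (mean of 8 genes, 12.87 to 12.95 over the arrays) and of fibroblasts (8 genes, 12.44 to 12.54) were bright on every array, as the tissue label implies. With 3 arrays a group, small differences cannot be resolved.

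Most chemokine transcripts were dim in this skin. Of the 49 genes, 12 (24.5%) reached the level of the median probe set, against 64.6% of all genes. Another 30 lay between that level and the highest Y-linked value, and 7 lay within the range of silent genes or below it. Among ligands 9 of 33 reached the median and among receptors 3 of 16. Among these 49 the brightest were the ligands Cxcl14, Cxcl12, Ccl6, Cxcl16 and Ccl9 and the receptor Cxcr4. Probe sets annotated to several symbols are not counted here, and some were brighter than that of Ccl6. A probe set with 5 symbols, Ccl27a among them, measured 9.14 to 9.90 over the arrays. Another with 9 symbols, Ccl21a among them, measured 9.31 to 9.66. Probe sets differ in how well they bind, so the order of these levels is not an order of transcript abundance.

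**Figure D1:**
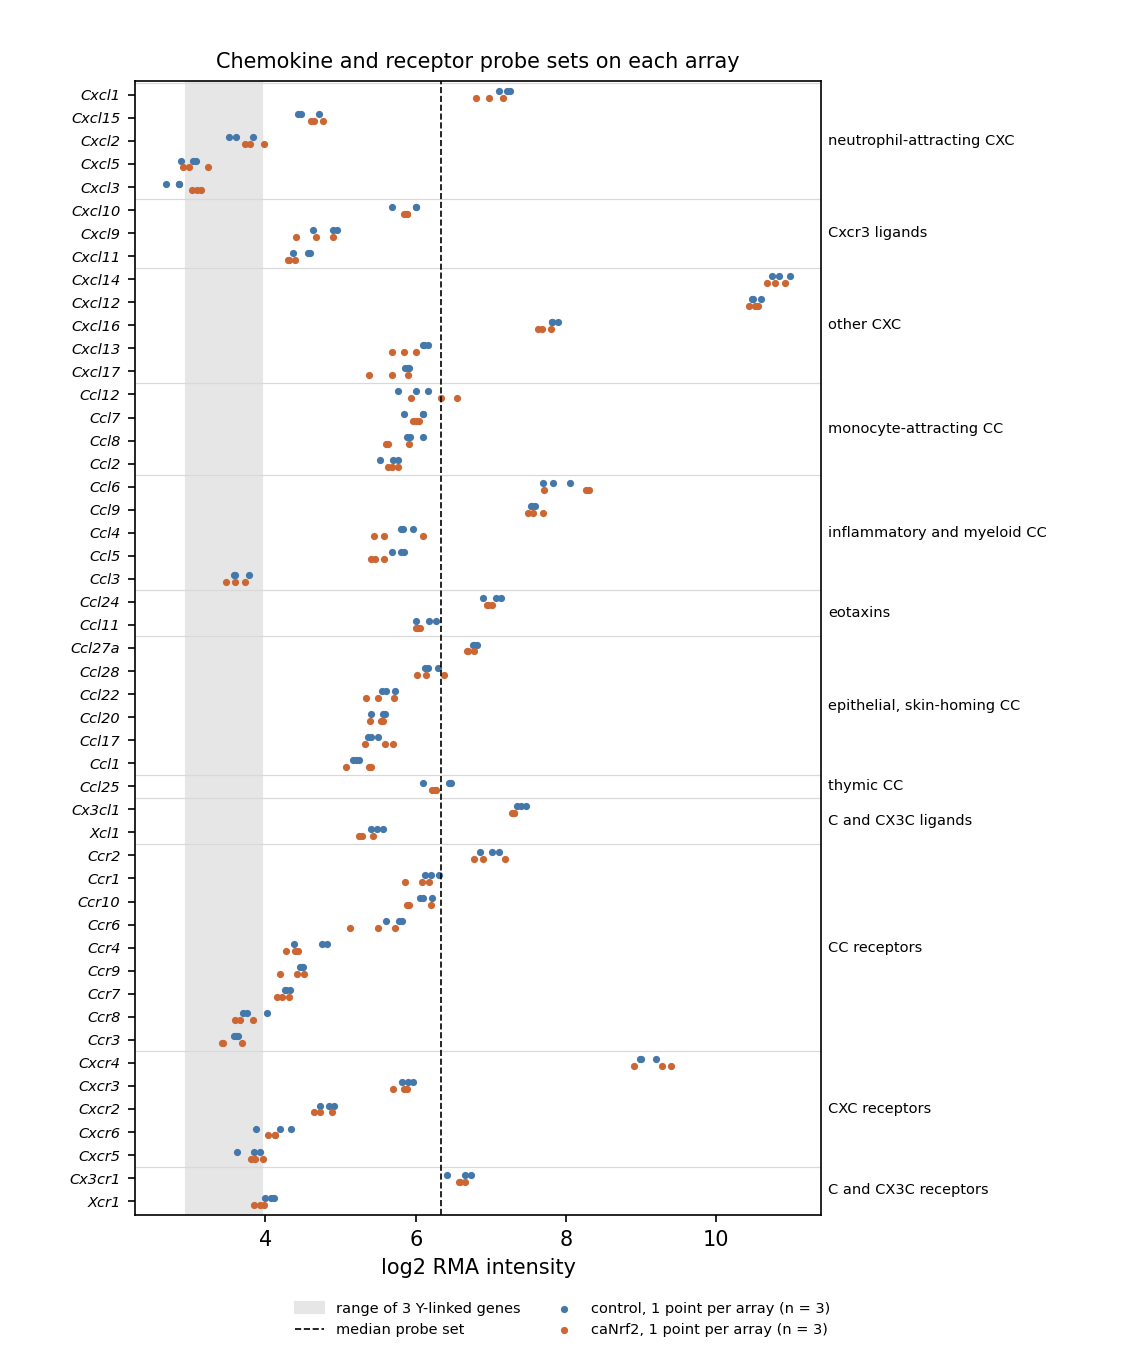
Log2 intensity (horizontal axis) of the 49 genes on each of the 6 arrays, grouped by role; blue points are control and orange points caNrf2 arrays, the dashed line is the median probe set at 6.34 and the grey band spans the Y-linked genes, 2.94 to 3.95. Only 12 genes reach the dashed line in their mean, and for most genes the colours overlap.

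No chemokine or receptor gene passed the test between caNrf2 and control skin. In the fit over all genes (limma, Benjamini-Hochberg adjusted p under 0.05) 0.374% of genes were called (0.346% higher, 0.0275% lower), and 0 of the 49 members, with a smallest adjusted p of 0.299 for Cxcl3. At an unadjusted p under 0.05 there were 5 members, 1 higher and 4 lower. This is 10.2% of them, near the 8.09% of all genes (3.26% higher, 4.82% lower). The groups did not overlap for 6 members, 1 higher and 5 lower, or 12.2%, against 13.1% of all genes (6.23% higher, 6.88% lower). The share is thus close to that of the whole array. Differences ran from -0.29 to 0.30 (log2). For 48 of the 49 (98%, against 98.4% of all genes) the 95% interval lay within 1.5-fold in either direction. The exception was Ccl12 with an upper bound of 1.55-fold. These bounds hold on the scale of the deposited values, on which differences of dim genes are compressed. Fewer cells of a type and less RNA per cell cannot be told apart in whole skin.

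The members leaned slightly to the lower side, more than all genes at bright and dim levels but not among silent ones. Of the 49, 36 had a lower mean in caNrf2 skin (73.5%, against 52.8% of all genes), and their median difference was -0.06, against -0.01 for all genes. Among the 4697 genes between the silent range and the median probe set, 69.9% were lower and the median was also -0.06. Of the 30 members in that range 83.3% were lower, with a median of -0.10. Of the 12 brighter members 66.7% were lower (median -0.05), against 44.4% of all genes as bright (0.01). Of the 7 in the silent range 42.9% were lower (median 0.05), against 63.8% of all genes there (-0.03). Relative to the control mean, the members' median was -0.05, -0.08 and -0.09 on caNrf2 arrays 1 to 3. The genes of that dim range had medians of -0.02, -0.09 and -0.08 on the same arrays. What part the level of the genes has in the lean of the members was not tested.

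**Figure D2:**
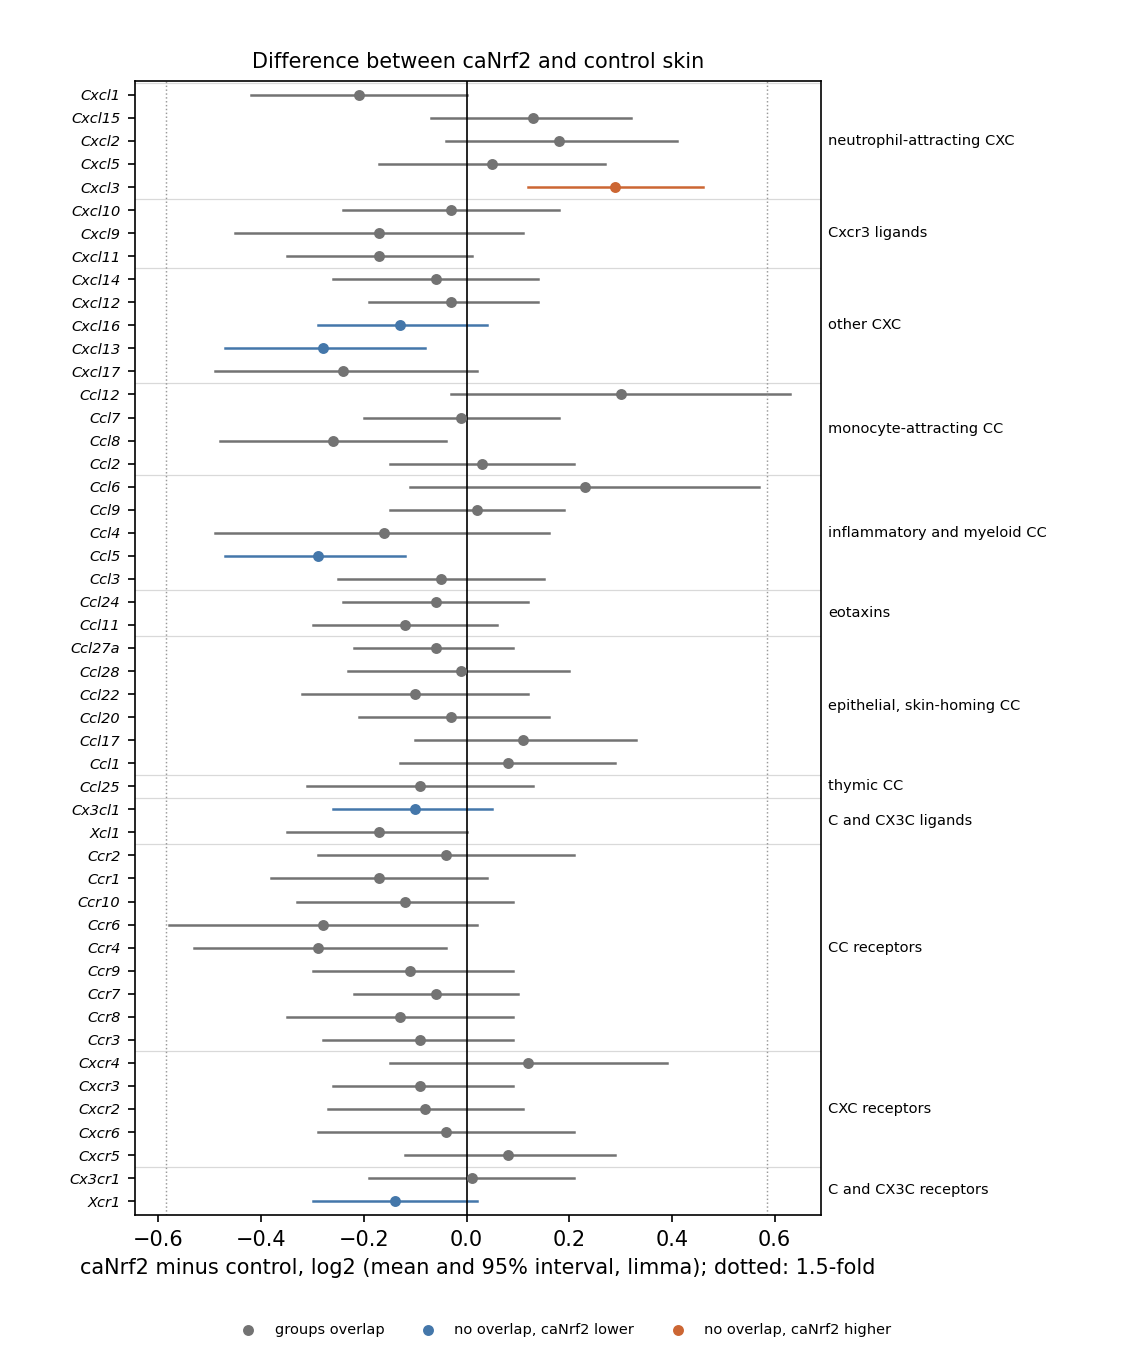
Difference between caNrf2 and control skin (log2, horizontal axis) of the 49 genes with its 95% interval from limma; dotted lines mark 1.5-fold, and colour marks the 6 genes whose groups of 3 arrays do not overlap. All estimates lie between -0.29 and 0.30, and only the interval of Ccl12 crosses a dotted line.

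The neutrophil-attracting CXC ligands, which act through Cxcr2, were dim except for Cxcl1, and 3 of the 5 lay within the range of silent genes. Cxcl1, a first responder to skin injury, measured 7.26, 7.21 and 7.11 in the controls and 7.16, 6.80 and 6.98 in caNrf2 skin. Only the first caNrf2 array lay among the controls, and the difference was -0.21 ± 0.10 (SE, adjusted p = 0.620), or -0.12 without caNrf2 array 2. Cxcl2, its close relative, measured 3.51, 3.84 and 3.61 against 3.98, 3.79 and 3.73, which overlap, with a difference of 0.18 ± 0.10 (adjusted p = 0.702). Cxcl3 measured 2.85, 2.68 and 2.85 in the controls and 3.02, 3.09 and 3.14 in caNrf2 skin. These groups did not overlap (0.29 ± 0.08, adjusted p = 0.299), yet every control value lay below the lowest Y-linked value. With 16 added before the logarithm the difference was 0.09 (adjusted p = 0.705). Cxcl5, also silent, and Cxcl15, at 4.61, differed by 0.05 and 0.13.

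The level of Cxcl1 depended on the probe set. The brightest, at 7.09, is of a kind that can bind related transcripts, as is the second, at 6.61. The third, of the kind meant to bind 1 gene, measured 3.85, within the silent range. Their differences were -0.21, -0.02 and 0.05, so neither the level nor the sign of Cxcl1 was shared by its probe sets.

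The promoters of the neutrophil attractants Cxcl1, Cxcl2 and Cxcl3 are shown because they share a motif that the choice of members did not use. RefSeq promoters (GRCm38.p6, 250 bases before to 50 after the start of the gene) were found for 36 members. Both strands were searched for a form of the NF-kB site, GGGA followed by any base and TTTCC, chosen after the values were seen. It was found in 4 of the 36 members (11.1%) and in 0.466% of 27025 genes. The 4 were Cxcl1, Cxcl2, Cxcl3 and the eosinophil receptor Ccr3. Cxcl1, Cxcl2 and Cxcl3 are related genes that lie close together on chr5, so their matches are not independent. The difference between the shares was not tested. The letters are the same in all 4, in Ccr3 on the opposite strand of the gene. In Cxcl1, Cxcl2 and Cxcl3 the first base lies at -71, -97 and -73 from the start. The sites are given below with the match in capitals and 8 bases on either side, from chr5:90891166-90891191, chr5:90903794-90903819 and chr5:90786020-90786045, each on the + strand.
Cxcl1: tgtactccGGGAATTTCCctggcccg
Cxcl2: tgagctcaGGGAATTTCCctggtccc
Cxcl3: gctgcgggGGGAATTTCCccagcccg

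A match to these letters describes the sequence and does not show that a factor binds it. Cxcl1, Cxcl2 and Cxcl3 differed by -0.21, 0.18 and 0.29, and Ccr3, within the silent range, by -0.09. None of them passed the test. The core of the antioxidant response element, through which Nrf2 acts, is TGACNNNGC. It was found in 3 of the 36 members (8.33%), against 14% of all genes. The 3 were Ccr3, where both motifs stand at separate positions, the interferon-inducible ligand Cxcl10 and the B cell attractant Cxcl13. The matches of both ligands are shown because Cxcl13 is among the members whose groups do not overlap. They lie at chr5:92348949-92348973 (gene on the - strand, core on the opposite strand of the gene) and chr5:95956832-95956856 (+ strand).
Cxcl10: ggagccttGCTGAGTCAtctccaaa
Cxcl13: ttgaaaacTGACATTGCagctgacc

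Of the 2 ligands with that core, only Cxcl13 separated the groups. Cxcl10, a ligand of Cxcr3 on activated T cells, measured 6.00, 5.69 and 6.01 in the controls and 5.84, 5.89 and 5.88 in caNrf2 skin. The caNrf2 values lay inside the range of the controls, and the difference was -0.03 ± 0.09 (adjusted p = 0.968). The other ligands of Cxcr3, Cxcl9 and Cxcl11, were dimmer and both differed by -0.17. Cxcl13 measured 6.10, 6.11 and 6.16 in the controls and 6.01, 5.84 and 5.69 in caNrf2 skin. Each caNrf2 array was below each control array, by a mean of -0.28 ± 0.09 (adjusted p = 0.420). The second, dimmer probe set of Cxcl13 differed by 0.09 in the opposite direction, and the mean of both by -0.09.

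The ligands with the brightest probe sets, Cxcl14 and Cxcl12, had small differences. Cxcl14, an epithelial chemokine made by healthy epidermis, measured 10.74, 10.98 and 10.83 in the controls and 10.67, 10.91 and 10.78 in caNrf2 skin. The groups overlapped almost fully, with a difference of -0.06 ± 0.09 (95% interval -0.26 to 0.14). Its second probe set, at 10.10, differed by -0.07. Cxcl12, which holds and guides Cxcr4-bearing cells and is made by dermal fibroblasts, measured 10.49, 10.59 and 10.48 against 10.43, 10.55 and 10.51. This difference was -0.03 ± 0.07 (95% interval -0.19 to 0.14), the groups again overlapping. Of the other Cxcl12 probe sets, 1 at 7.93 differed by 0.02, and 1 at 5.46 differed by -0.24 without overlap of the groups (adjusted p = 0.407 over all probe sets).

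Cxcl16, a membrane-bound ligand that can be shed, was lower on each caNrf2 array with its brighter probe set. It measured 7.81, 7.81 and 7.89 in the controls and 7.68, 7.80 and 7.63 in caNrf2 skin, a difference of -0.13 ± 0.07 (adjusted p = 0.708). The second probe set, at 6.70, overlapped and differed by -0.04, with its highest value on a caNrf2 array. Cx3cl1, another membrane-bound ligand, measured 7.35, 7.47 and 7.40 against 7.28, 7.31 and 7.31. Again the groups did not overlap, by a small margin, and the difference was -0.10 ± 0.07 (adjusted p = 0.756). The other 3 Cx3cl1 probe sets differed by 0.02, 0.00 and -0.04. Cxcl17, a ligand of mucosal epithelia, differed by -0.24 ± 0.12 and overlapped.

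**Figure D3:**
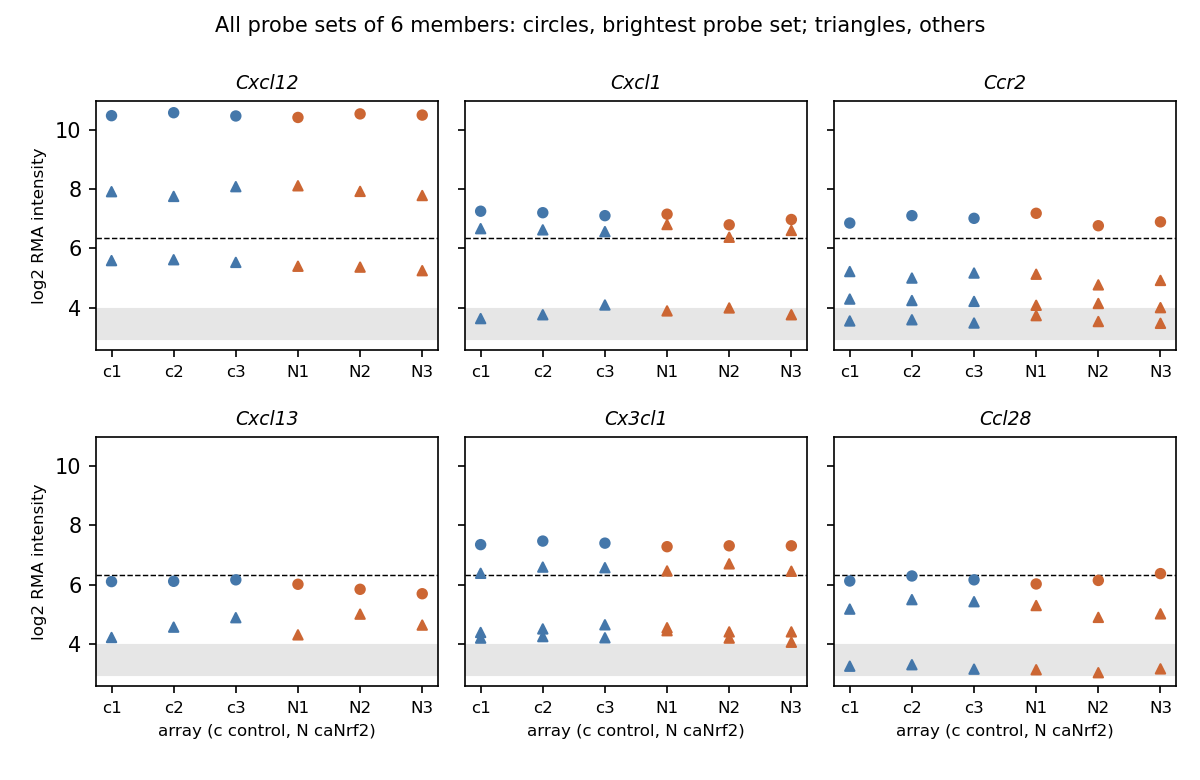
Log2 intensity (vertical axis) of every probe set of 6 members on the 3 control (c1 to c3, blue) and 3 caNrf2 arrays (N1 to N3, orange); circles are the brightest probe set, triangles the others, the dashed line is the median probe set and the grey band the range of Y-linked genes. Probe sets of 1 gene sit far apart, for Cxcl12 at 10.51, 7.93 and 5.46, while control and caNrf2 arrays sit close together.

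Several probe sets of a gene often disagreed. Of the 49 members 31 had 1 probe set and 18 had several. The gap between the brightest and the dimmest had a median of 1.49 and was largest, 5.05, for Cxcl12. In 9 of the 18, probe sets differed in sign between the groups. Of all 77 member probe sets 52 were lower and 25 higher in caNrf2 skin. None was called, against 0.240% of all probe sets, and 8 had an unadjusted p under 0.05 (8.86% of all probe sets).

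Among CC ligands the largest positive differences were those of 2 myeloid genes, and neither passed the test. Ccl6, made by macrophages and other myeloid cells, measured 7.69, 7.83 and 8.05 in the controls and 7.70, 8.26 and 8.30 in caNrf2 skin. The caNrf2 arrays 2 and 3 exceeded every control and array 1 did not, for a difference of 0.23 ± 0.15 (adjusted p = 0.758). It was 0.14 without control array 1, 0.14 and 0.12 without caNrf2 arrays 2 and 3, and 0.42 without caNrf2 array 1. The second, dimmer probe set of Ccl6 differed by 0.03, and the mean of both by 0.13. Ccl12, a mouse monocyte attractant named after its values were seen, measured 6.16, 5.76 and 6.00 against 5.94, 6.33 and 6.55. Here too caNrf2 arrays 2 and 3 exceeded every control, with a difference of 0.30 ± 0.15 (adjusted p = 0.657). The macrophage and monocyte markers, 13 genes with none in the silent range, averaged 8.29 to 8.44 in the controls and 8.23, 8.49 and 8.36 on caNrf2 arrays 1 to 3. Their part in the values of Ccl6 and Ccl12 was not tested. Ccl9, which is close to Ccl6 in sequence and also made by myeloid cells, differed by only 0.02 ± 0.08.

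Ccl2, the main ligand of the monocyte receptor Ccr2, measured 5.52, 5.70 and 5.76 in the controls and 5.76, 5.63 and 5.68 in caNrf2 skin. The groups overlapped, with a difference of 0.03 ± 0.08 (95% interval -0.15 to 0.21). Of the other ligands grouped here with Ccl2, Ccl7 differed by -0.01 and Ccl8 by -0.26 ± 0.10 (adjusted p = 0.537). Ccl5, a product of T and NK cells that attracts further leukocytes, had the second smallest p of all members. It measured 5.80, 5.84 and 5.69 in the controls and 5.58, 5.40 and 5.46 in caNrf2 skin. Each caNrf2 value lay below each control value, by a mean of -0.29 ± 0.08, which is 0.817 of the control level (95% interval 0.723 to 0.922; adjusted p = 0.311). Of 11 T and NK cell markers 9 were lower, with a median of -0.13, none called and none in the silent range. Between the silent range and the median probe set lay 9 of the 11, where 69.9% of all genes were lower (median -0.06). Relative to the control mean, all genes of that range had medians of -0.02, -0.09 and -0.08 on caNrf2 arrays 1 to 3. The mean level of the 11 markers was 5.30 to 5.34 in the controls and 5.33, 5.18 and 5.07 on these arrays. The part of these markers in the value of Ccl5 was not tested.

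The chemokines by which epithelia draw T cells and dendritic cells to the skin had no gene past the test. Ccl27a, a keratinocyte chemokine bound by Ccr10, measured 6.76, 6.81 and 6.78 in the controls and 6.68, 6.78 and 6.69 in caNrf2 skin. Its groups overlapped (-0.06 ± 0.07, adjusted p = 0.871), and its probe set is of the kind that can bind related transcripts. A brighter probe set annotated to 5 symbols, Ccl27a among them, was assigned to no gene and differed by -0.51 ± 0.10 without overlap (adjusted p = 0.0867 over all probe sets). Ccl20, the ligand of Ccr6 on Langerhans cell precursors and some T cells, measured 5.59, 5.57 and 5.41 against 5.57, 5.54 and 5.39. Its difference of -0.03 ± 0.08 (95% interval -0.21 to 0.16) was close to 0, as was that of Ccl28, also a ligand of Ccr10, at -0.01. Ccl17 and Ccl22, which share the receptor Ccr4, differed by 0.11 and -0.10, and Ccl1 by 0.08. Of the eotaxins, which attract eosinophils, Ccl24 measured 7.13, 6.90 and 7.07 against 7.01, 6.95 and 6.96 and differed by -0.06 ± 0.08, within the control range. Ccl11 differed by -0.12. The remaining ligands were Xcl1 at -0.17, Ccl25 at -0.09, Ccl4 at -0.16 and Ccl3, within the silent range, at -0.05.

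All 9 measured CC receptors had a lower mean in caNrf2 skin, but none passed the test, and no brightest probe set separated the groups. The median of these 9 was -0.12. Of the 9, 6 lay between the silent range and the median probe set, where 69.9% of all genes were lower. Another 2 lay in the silent range, where 63.8% of all genes were lower. Ccr2, which brings monocytes into tissue, measured 6.86, 7.11 and 7.02 in the controls and 7.19, 6.77 and 6.90 in caNrf2 skin, with the highest value on a caNrf2 array (-0.04 ± 0.11). Of its dimmer probe sets, those at 5.03, 4.16 and 3.56 differed by -0.19, -0.17 and 0.04, and the groups did not overlap for the one at 4.16 (adjusted p = 0.551 over all probe sets). Ccr6 measured 5.78, 5.82 and 5.60 against 5.73, 5.13 and 5.50, with the second caNrf2 array the lowest. Its difference was -0.28 ± 0.14 (adjusted p = 0.649), and -0.12 without that array. Ccr1, a receptor of monocytes and neutrophils, differed by -0.17 ± 0.09, and Ccr10, the receptor of skin-homing T cells, by -0.12 ± 0.09. Ccr4, another skin-homing receptor, differed by -0.29 ± 0.11 (adjusted p = 0.537) at a level of 4.51, not far above the silent genes. Ccr7, Ccr8, Ccr9 and Ccr3 were dimmer still, between 3.56 and 4.43.

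Cxcr4, the receptor of Cxcl12, had the brightest probe set of the 16 receptors counted here. It measured 8.99, 9.20 and 9.0 in the controls and 8.90, 9.27 and 9.39 in caNrf2 skin. The lowest and the highest value were both on caNrf2 arrays, and the difference was 0.12 ± 0.12 (adjusted p = 0.855). It was 0.02 without caNrf2 array 3 and 0.27 without caNrf2 array 1. Ackr3, the atypical receptor that also binds Cxcl12 and scavenges it, is named after its values were seen and differed by -0.08 ± 0.07 at 9.87 in the controls. For Cxcl12, Cxcr4 and Ackr3 alike the 95% interval lay within 1.5-fold, as it did for 98.4% of all genes. Cx3cr1, the receptor of Cx3cl1 on macrophages and Langerhans cells, measured 6.73, 6.41 and 6.65 against 6.66, 6.59 and 6.57, the caNrf2 values all within the control range (0.01 ± 0.09). Cxcr3 differed by -0.09 ± 0.08 and Cxcr2, the neutrophil receptor, by -0.08. Xcr1, which marks dendritic cells that present antigen to cytotoxic T cells, measured 4.0, 4.11 and 4.07 against 3.93, 3.98 and 3.85. Its groups did not overlap (-0.14 ± 0.07, adjusted p = 0.675), at the upper edge of the silent range. Cxcr5, at 3.84 within that range, and Cxcr6, at 4.12 just above it, differed by 0.08 and -0.04.

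Markers of the leukocytes that carry these receptors were also without called genes. Of 9 measured neutrophil markers 7 were lower, with a median of -0.23. Between the silent range and the median probe set lay 7 of the 9, where 69.9% of all genes were lower (median -0.06). The mean level of the 9 markers was 5.58 to 5.73 in the controls and 5.62, 5.44 and 5.43 on the caNrf2 arrays. The 2 of smallest p, Mpo and Elane, were dim and differed by -0.33 ± 0.11 and -0.28 ± 0.09 (adjusted p = 0.470 and 0.459). The 2 that were not lower, Camp at 7.24 and Mmp8 at 4.42, differed by 0.00 and 0.05. Langerhans and dendritic markers, 11 genes with Ly75 alone in the silent range, averaged 7.11 to 7.23 in the controls and 7.10, 7.18 and 7.0 on the caNrf2 arrays. Cd207, which encodes the Langerhans cell protein langerin, measured 6.09 ± 0.07 in the controls and 5.98 ± 0.05 in caNrf2 skin (SD, n = 3). Its groups did not overlap, as for 13.1% of all genes, and the difference was -0.11 ± 0.07 (SE; limma, adjusted p = 0.745). Mast cell markers (7 genes, Fcer1a in the silent range) ran from 8.46 to 8.51 in the controls and from 8.26 to 8.70 in caNrf2 skin. The 4 B cell markers all lay below the median probe set, and 2 of them separated the groups in opposite directions. Cd79b, a part of the B cell receptor, differed by 0.38 ± 0.11 (adjusted p = 0.329) and Ms4a1, which encodes CD20, by -0.21 ± 0.09 (adjusted p = 0.6). The 4 lymphatic markers averaged 7.44 to 7.48 against 7.27 to 7.44. What part these cells have in the receptor values was not tested.

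**Figure D4:**
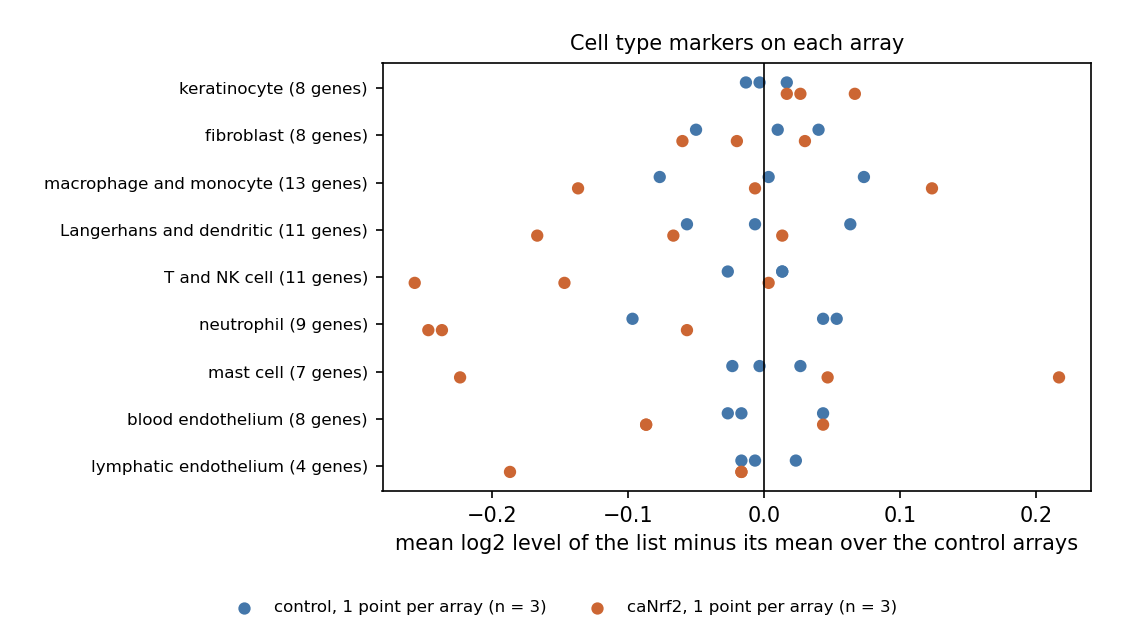
Mean log2 level of each list of cell type markers, minus its mean over the control arrays (horizontal axis), with 1 point per array; blue is control and orange caNrf2. Keratinocyte and fibroblast lists, which are bright, stay within 0.1 of the control mean. T and NK cell and neutrophil lists, mostly dim genes, lie more than 0.1 below it on caNrf2 arrays 2 and 3. All genes between the silent range and the median probe set had medians of -0.09 and -0.08 on those arrays. The mast cell list also spreads on the caNrf2 arrays, from 8.26 to 8.70, against 8.46 to 8.51 in the controls.

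Genes that act with chemokines were read from lists outside the family. Of 9 chemokines and receptors with other names, none passed, and Ccrl2, a chemerin-binding relative of the receptors, and Ccr1l1 had the smallest p (-0.16 ± 0.07 and -0.16 ± 0.08). Of 18 genes that carry the signal inside the cell none passed either, with a median of -0.07. Rgs16, which shortens signalling by G proteins, came closest at -0.35 ± 0.07 (adjusted p = 0.114), from 7.02 to 6.66, followed by Vav1, a leukocyte exchange factor, at -0.21 ± 0.09. Of 20 NF-kB genes and inducing cytokines 1 passed, Il1f9, which encodes interleukin 36 gamma, an epithelial cytokine known to induce chemokines. It rose from 9.26 to 10.22 (0.96 ± 0.07, adjusted p = 0.000112). Nfkbiz, a co-activator of NF-kB, differed by 0.29 ± 0.08 (adjusted p = 0.312). Il1b and Tnf differed by 0.16 and 0.00, and the median of this list was -0.02. Of 12 genes that cut, modify or anchor chemokines none passed. The smallest p there belonged to Adam17 at 0.14 ± 0.07, a protease that sheds Cx3cl1, and to the proteoglycan Sdc1 at 0.08 ± 0.07. All 12 Nrf2 targets were higher in caNrf2 skin without overlap on the same arrays, and 10 of them were called. Their median difference was 1.76.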

How the data were processed

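Per the submitters' processing notes, the authors processed the arrays with RMA, which subtracts background, normalises by quantiles and summarises probes. They deposited 1 linear intensity per probe set and array. The sources used here name no software version. RMA makes array distributions nearly equal and compresses differences of dim genes. The deposited intensities were converted to log2, with no pseudocount and no filter, so all 49 members entered the test. After removal of 64 control probe sets from 45101, the 34945 with 1 gene symbol in the platform annotation gave 18193 genes. Probe sets with several symbols were not named.

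The test was limma's moderated one (version 3.58.1, R 4.3.3) between groups of 3 with no block, with Benjamini-Hochberg adjustment over all genes and a threshold of 0.05; SE and 95% intervals come from that fit. It was tested on simulated data. Replicates were separate animals. Members, lists and the rule for named genes were chosen with earlier results of these data known. Named members were the 8 brightest ligands and 6 brightest receptors, the 5 largest rises and falls that reach the median probe set, members without overlap at an unadjusted p under 0.05, and 12 genes fixed by name. From the lists of genes that act with chemokines the 2 genes of smallest p and any called gene were named. This rule was not applied to the cell type lists or the Nrf2 targets. Nqo1 and Nfe2l2 were named as the check of the genotype. Remaining names were added after their values were seen. Alternatives, 17 with each array left out in turn, are described at the end.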

Additional observations from a re-analysis of the deposited data

How the results depend on the processing

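No member was called under any of the 17 alternatives, and the smallest adjusted p of the 23 named members was 0.105, for Cxcl13 without caNrf2 array 1. Of these 23, 14 kept their sign throughout, often with large shifts in size. Their values ran from -0.13 to -0.01 for Ccl24, -0.10 to -0.05 for Ccl27a, -0.34 to -0.22 for Ccl5, 0.12 to 0.42 for Ccl6, -0.23 to -0.08 for Ccr1, -0.22 to -0.07 for Ccr10, -0.42 to -0.12 for Ccr6, -0.13 to -0.03 for Cx3cl1, -0.36 to -0.09 for Cxcl13, -0.18 to -0.08 for Cxcl16, 0.08 to 0.27 for Cxcl2, 0.09 to 0.32 for Cxcl3, -0.14 to -0.03 for Cxcr3 and 0.02 to 0.27 for Cxcr4. The sign changed for Ccl20 with a further quantile normalisation (0.00) and cyclic loess (0.01), for Ccl9 with the former (-0.01) and for Cx3cr1 with array weights (-0.01). Cxcl1 went to 0.05 without probe sets that can bind related transcripts, an alternative chosen after seeing the data. With single arrays left out, values ran from -0.04 to 0.08 for Ccl2, -0.08 to 0.03 for Ccl20, -0.04 to 0.07 for Ccl9, -0.16 to 0.05 for Ccr2, -0.09 to 0.08 for Cx3cr1, -0.14 to 0.02 for Cxcl10, -0.05 to 0.01 for Cxcl12 and -0.13 to 0.00 for Cxcl14. The members' median then ran from -0.09 to -0.05, called genes of the whole array from 41 to 89 (41, 43 and 45 without control arrays 1, 2 and 3), and members without overlap from 7 to 20, where fewer arrays overlap less by construction. The 7 belong to the setting without caNrf2 array 2, in which 27.7% of all genes did not overlap, and the 20 to that without caNrf2 array 1, with 32.1%. Kept to genes that reach the median probe set, 12 members remained, 8 lower and 2 without overlap. Deviations of same-numbered arrays from their group means correlated at -0.20, -0.03 and 0.04, and those of different-numbered arrays at -0.16 to 0.19. Deviations from a mean of 3 arrays depend on each other, so these values cannot show whether the numbers pair the arrays. A replicate block gave 61 called genes in place of 68 and again no member. Under further normalisation the all-gene median shifted by 0.01 or less. The count of members lower in caNrf2 skin, 36 of 49, was 34 with the quantile step and 32 with cyclic loess. It was 38 with array weights, 34 without probe sets that can bind related transcripts, and 33 to 37 with single arrays left out. Levels near the Y-linked genes limit what could be seen for the dim members.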

Other observations

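Outside the 49 genes, 4 probe sets are annotated to several gene symbols that include chemokine names, and they were assigned to no gene. One, shared by Ccl27a, Ccl27b and others (5 symbols), measured 9.76, 9.83 and 9.90 in the controls and 9.32, 9.50 and 9.14 in caNrf2 skin. Its groups did not overlap, and the difference of -0.51 ± 0.10 was larger than that of any member, but it missed the threshold (limma over all probe sets, adjusted p = 0.0867). A second probe set of the same 5 symbols measured 7.79, 7.73 and 7.61 against 7.64, 7.71 and 7.66, which overlap (-0.04 ± 0.08). The other two, with 9 symbols that include Ccl21a and 10 that include Ccl19, differed by -0.06 and -0.04.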
